A study of Mus musculus with 54 samples.

Results

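Pou5f1 encodes OCT4, the POU-domain transcription factor that ES cells need to keep their identity. The regions described here are the accessible regions around its gene. They were chosen as every peak on chromosome 17 of the deposited merged peak list whose centre lay within 100 kb of the gene (chr17:35506018-35510772, GRCm38, plus strand), which gave 25 of the 113737 regions in the list. The list holds positions alone, with no height, score or sample column, so every value below is a position, a length, a count or a property of the sequence, and none of them has a replicate error. For the same reason no test was made, and nothing below says in which condition a region was open or how strongly.

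The list was made from ATAC-seq libraries of mouse ES cells. In ATAC-seq a transposase inserts sequencing adapters wherever DNA is free of nucleosomes, and a peak is a stretch where many such fragments pile up. The series has 54 samples in 24 groups, all of ZHBTc4 cells, a line in which both copies of Pou5f1 are disrupted and OCT4 comes from a Tet-Off transgene that doxycycline (dox) shuts off. The cells also carried mCherry-OCT4-AID, an OCT4 fusion driven at a low level by the PGK promoter and degraded through the TIR1 protein when auxin (IAA) is added, and YPet-MD, a reporter used to sort cells by cell cycle phase. Every sample had dox at 1 µg/ml, and all had been grown in serum with LIF and inhibitors of GSK3 and MEK. The constructs were delivered by lentivirus into sorted pools of cells.

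The first set had 26 hr of dox with or without 500 nM IAA for 2 hr, sorted into early G1 (EG1), late G1 (LG1) and S with 3 samples per group, and late S and G2 (SG2) with 2 samples per group. The washout set had 31 hr of dox, with IAA for 2.5 hr followed by 4.5 hr without it or the matching control, in the same 4 phases with 2 samples per group. The time course had 34 hr of dox in unsorted cells with IAA for 30 min or 1, 2, 3, 4, 6 or 10 hr, or no IAA, with 2 samples per group. Regions seen in any of these libraries, of whatever group, could enter the merged list, and how many libraries supported a region was not recorded in it.

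Transcription of Pou5f1 is controlled by a promoter and by a pair of enhancers just upstream. The distal enhancer is the one active in the inner cell mass and in naive ES cells, whereas the proximal enhancer is used mainly in the epiblast and in primed cells. OCT4 and SOX2 bind side by side at the distal enhancer, on a composite site in which a SOX site is followed by an octamer site. None of the annotations used here marks these enhancers, so each was given a window by hand at its textbook position, centred about 2.0 kb upstream of the transcription start site (TSS) for the distal and about 1.2 kb for the proximal enhancer.

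The sequences below show what the peaks at and near the gene held, read from GRCm38.p6 on the plus strand. The first is the part of the peak over the distal enhancer that surrounds its closest match to the composite OCT4::SOX2 motif, with the match in capitals (chr17:35503989-35504123). The second is the surroundings of the composite match with the fewest mismatches among the 25 peaks, also in capitals (chr17:35543465-35543599). The third is the stretch before the TSS, from the RefSeq promoter entry up to the last base upstream, with its GC box in capitals (chr17:35505782-35506017).
Distal enhancer peak: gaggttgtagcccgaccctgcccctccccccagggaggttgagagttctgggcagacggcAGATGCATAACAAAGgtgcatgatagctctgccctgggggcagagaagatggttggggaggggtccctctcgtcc
Peak between Psors1c2 and Cdsn: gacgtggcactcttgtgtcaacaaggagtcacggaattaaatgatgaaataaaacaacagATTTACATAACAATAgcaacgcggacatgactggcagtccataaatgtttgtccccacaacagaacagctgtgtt
Pou5f1 promoter: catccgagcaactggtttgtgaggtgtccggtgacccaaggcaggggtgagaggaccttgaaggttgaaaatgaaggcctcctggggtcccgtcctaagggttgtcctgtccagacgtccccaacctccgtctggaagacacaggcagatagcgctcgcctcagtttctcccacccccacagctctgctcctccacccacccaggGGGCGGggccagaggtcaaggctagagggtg

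Of the 25 peaks, 12 had their centre upstream of the Pou5f1 TSS and 13 downstream. They covered 20.7 kb of the 204.8 kb searched, or 10.1%, against 3.10% of chromosome 17 and 2.53% of all sequenced bases. In number they came to 122 peaks per Mb, against 52.0 on chromosome 17 and 43.0 over all chromosomes. No other region of like gene content was set beside these values.

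The peaks were closest together at the gene itself. In the 5 kb upstream of the TSS, 45.6% of the bases lay in peaks, and in the 5 kb downstream 49.7% did. The downstream share lies in peaks that cover coding exons of Pou5f1. There, reads of the OCT4 transgene and fusion construct cannot be told apart from those of the locus. From 5 to 20 kb the covered share was 11.6% upstream and 9.46% downstream, and beyond 20 kb it was 9.11% upstream and 6.48% downstream. The median gap between neighbouring peaks was 4981 bp. The shortest gap was 345 bp, and the longest was 24.95 kb, between the peaks at H2-Q7 and upstream of H2-Q10. The outermost 14.0 kb on the upstream side and 19.3 kb on the downstream side held no peak.

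**Figure D1:**
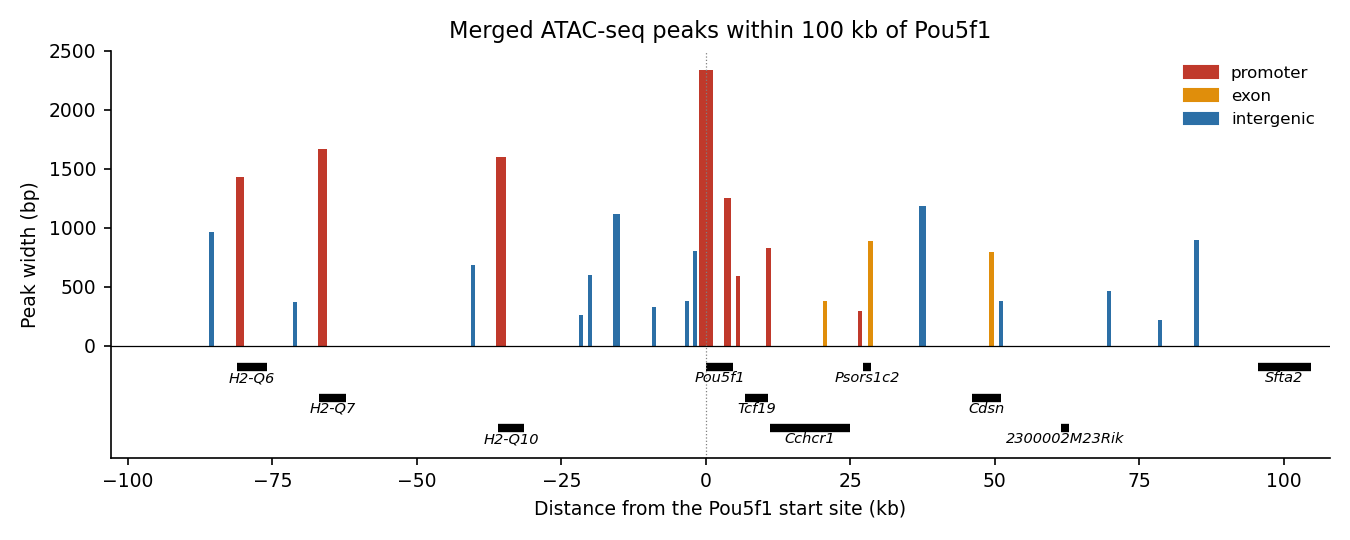
Width in bp (vertical axis) of each of the 25 merged peaks against the distance of its centre from the Pou5f1 TSS in kb (horizontal axis), coloured by the annotation at its centre, with protein-coding genes as black bars below. Narrow peaks are drawn wider than to scale, and Sfta2 is cut off at the edge of the window. The widest bar, 2335 bp, stands at the Pou5f1 TSS, and the next widest stand at H2-Q7 and H2-Q10.

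The peak over the distal enhancer lay at chr17:35503772-35504573 and was 802 bp wide. It ran from 2246 to 1445 bp upstream of the TSS, with its centre 1845 bp upstream. It covered 547 of the 601 bases of the distal enhancer window, or 91.0%, and held the textbook point 2.0 kb upstream of the TSS. Among the 89794 peaks whose centre was more than 1 kb from any annotated TSS, called distal below, 85.2% were narrower. Its GC content was 51.0%, and each of its 75-base stretches occurred at a single place in the genome.

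The composite motif searched was the SOX part CATTGTT followed directly by the octamer ATGCAAAT, on both strands, and its best match in this peak had 3 mismatches. The match lay on the minus strand at chr17:35504049-35504063, centred 1962 bp upstream of the TSS, where it reads CTTTGTTATGCATCT. Counting from 1 at the 5′ end of the motif, the substitutions were A2T, A13T and A14C, so the SOX part differed at a single position and the first 5 bases of the octamer were kept. A match with up to 3 mismatches was present in 2.36% of all distal peaks as deposited. When each distal peak was read in a window of the same 802 bp, the share was 3.91% of 89794 windows. The SOX part alone was also counted as a SOX match, written CNTTGTT, and so overlaps the composite. That form allows any letter at position 2, and by it the SOX part here is a full match. Whether this site passes a cut-off of 2 mismatches therefore depends on the letter set at that position.

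The proximal enhancer fell mostly into a gap. Its window of 601 bases was covered over 256 bases, or 42.6%, of which 56 belonged to the distal enhancer peak and 200 to the peak over the TSS. Between those peaks lay an uncovered stretch of 345 bp at chr17:35504574-35504918, from 1444 to 1100 bp upstream of the TSS. The textbook point 1.2 kb upstream lay inside this stretch, 101 bp from the edge of the TSS peak. The stretch was 55.9% GC and 8.41% repeat-masked, and all of its 75-base stretches were unique in the genome. It held no match to the OCT, SOX, nuclear receptor, GC box, KLF, STAT3 or CTCF motifs, and its best composite match had 5 mismatches. How much of the proximal enhancer counts as covered therefore turned on where its edges are set: with a window narrowed by 200 bp on each side the share was 0, and with one widened by 200 bp it was 65.5%.

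The peak over the TSS was the widest of the 25. It lay at chr17:35504919-35507253 and was 2335 bp wide, and 98.8% of the 23943 peaks within 1 kb of an annotated TSS, called promoter peaks below, were narrower. It ran from 1099 bp upstream to 1235 bp downstream of the TSS, across all 300 bases of the core promoter window, all 466 bases of exon 1 and 770 of the 2619 bases of intron 1. Its GC content of 57.3% was close to the median of all promoter peaks, 56.96%, but its ratio of observed to expected CpG was 0.265 against a median of 0.584. By this ratio 19.1% of promoter peaks were lower.

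The promoter at the first TSS held 1 of the 8 motifs searched, a GC box. This match, GGGCGG, was centred 28 bp upstream of the TSS and is the letters that SP and KLF family factors can bind. Of 32851 RefSeq promoters of 300 bases, 35.7% held this motif on either strand. The 300 bases of the RefSeq entry at this TSS, 1 of 2 entries for Pou5f1, held no match to the OCT motif ATGCAAAT, the nuclear receptor motif CAAGGTCA, the KLF motif GGGNGTGGC, the STAT3 motif TTCCNGGAA, the SOX motif or the CTCF motif CCANNAGNNGGC, nor to the composite with up to 2 mismatches. Those motifs were present in 1.74%, 1.56%, 5.76%, 1.15%, 14.1%, 2.43% and 0.122% of RefSeq promoters, in that order. Only the full nuclear receptor motif was searched. The printed promoter does hold its last letters, AGGTCA, just after the GC box. The TSS peak as a whole held 3 GC boxes, at 28 bp upstream and at 259 and 420 bp downstream, and a SOX match 1211 bp downstream.

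Besides the first, 5 further TSSs are annotated for Pou5f1, at 1464 and between 2787 and 2803 bp downstream, and none of them lay in a peak. They fell in the uncovered 1952 bp between the TSS peak and the next. In the transcript with the longest coding sequence, this stretch is the rest of intron 1 and the first 103 bp of exon 2. Transcripts that begin at the further TSSs have exon bases in it too. A second RefSeq promoter entry for Pou5f1, at chr17:35508557-35508856, lay in the same stretch and so outside any peak. In the stretch 94.99% of the 75-base stretches were unique in the genome. It held 2 GC boxes, 2 CTCF matches, 1 KLF match and 1 SOX match, and its best composite match had 4 mismatches.

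The second peak inside the gene lay over its last exons, at chr17:35509206-35510453, and was 1248 bp wide. It began in exon 2, 17 bp before that exon's end, and ended in exon 5, 165 bp after that exon's start. Exons 3 and 4 and introns 2, 3 and 4 lay wholly within it, and both of its edges fell in coding sequence. It also overlapped Gm19553, an antisense gene on the minus strand, whose TSS was 98 bp beyond the peak's downstream edge. The peak counts as a promoter peak only through Gm19553, as its centre was 3812 bp from the Pou5f1 TSS and 721 bp from that of Gm19553. It held the only octamer match among the 25 peaks, on the plus strand within exon 4. The transgene and the fusion construct carry OCT4 coding sequence too, and the merged list does not separate their reads from those of the locus. At coding exons the sources therefore cannot be told apart. The same holds for the introns under this peak, since peaks were called on paired-end fragments, which can reach from exon to exon.

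Over the gene as a whole, 2484 of 4755 bases, or 52.2%, lay in these 2 peaks. All such shares refer to the reference gene. Both copies of Pou5f1 are disrupted in this line, and their sequence was not examined. In the transcript with the longest coding sequence the covered share was 69.0% of exon bases, 81.3% of coding bases and 45.5% of intron bases. Exon 2 stood apart from its neighbours with 14.9% covered, against 100.0% of exons 1, 3 and 4 and 34.2% of exon 5. With the exons of all annotated transcripts joined, 41.8% of exon bases and 61.6% of intron bases were covered.

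**Figure D2:**
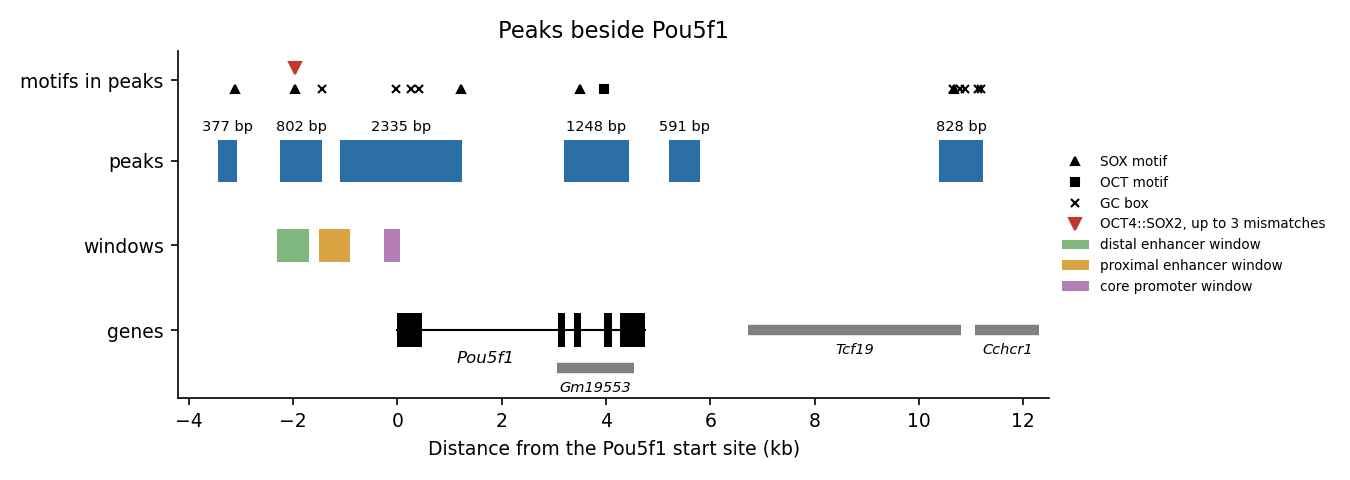
Peaks (blue, with their width in bp), the windows set for the core promoter and the enhancers, gene models and motif matches inside peaks, against the distance from the Pou5f1 TSS in kb. The distal enhancer window lies almost wholly under the 802 bp peak, the proximal enhancer window lies across the 345 bp gap, and the last exons lie under a peak of 1248 bp.

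The other peaks within 20 kb of the TSS lay outside the gene. Upstream, a peak of 377 bp was centred 3255 bp from the TSS, 820 bp beyond the distal enhancer peak. It was 41.6% repeat-masked, with a GC content of 45.4%, and held a SOX match. A peak of 331 bp followed at 8984 bp upstream. It had the lowest GC content of the 25, 43.5%, was 64.7% repeat-masked, and had 79.0% unique 75-base stretches. A wider peak of 1117 bp was centred 15465 bp upstream and was unique throughout. Among distal peaks 95.3% were narrower than it, and it held a SOX match 49 bp from its centre.

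Downstream of the gene, a peak of 591 bp was centred 5508 bp from the TSS, past the last exon, and was 64.3% repeat-masked although all its 75-base stretches were unique. It too counts as a promoter peak through Gm19553, whose TSS was 975 bp from its centre. Its best composite match had 4 mismatches. The last peak within 20 kb, 828 bp wide and centred 10805 bp downstream, covered the outermost annotated TSSs of both Tcf19, which encodes a PHD-finger protein, and Cchcr1, which encodes a coiled-coil protein, and which are transcribed away from each other. All 4 annotated TSSs of Tcf19 lay in it, and 3 of the 7 of Cchcr1. It had the highest CpG ratio of the 25, 0.841, above 89.3% of promoter peaks, and held 5 GC boxes and both of the KLF matches found.

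The composite motif with up to 2 mismatches was found in 1 of the 25 peaks, against 0.255% of all 113737. The peaks here were wider than most, and in windows of 802 bp on all distal peaks the share was 0.391%. That peak lay at chr17:35542979-35544160, was 1182 bp wide and was centred 37.6 kb downstream of the Pou5f1 TSS, between Psors1c2 and Cdsn. Among distal peaks 96.4% were narrower, and it was the widest of the 17 distal peaks here. The match was on the minus strand at chr17:35543525-35543539, 38 bp from the centre of the peak, and reads TATTGTTATGTAAAT, with the substitutions C1T and C11T. With 1 mismatch at most, 0 of the 25 peaks had a match, and with up to 3 it was this peak and that of the distal enhancer.

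The 6 peaks farthest upstream lay at or near class I-like genes of the major histocompatibility complex, which encode proteins of antigen presentation. Each of H2-Q6, H2-Q7 and H2-Q10 had a wide peak over its TSS, of 1426, 1669 and 1597 bp, and a narrower peak upstream, of 967, 369 and 685 bp. These narrower peaks shared an arrangement: each held a GC box and, 125 bp further on, the same CTCF match, CTCF being the zinc-finger protein that bounds chromatin loops. From the CTCF match to the annotated TSS of the gene downstream it was 4186 bp at H2-Q6, 4118 bp at H2-Q7 and 4218 bp at H2-Q10. The stretches are printed from 10 bases before the GC box to just after the CTCF match, with both in capitals (chr17:35420529-35420685, chr17:35434902-35435058 and chr17:35465736-35465892).
Upstream of H2-Q6: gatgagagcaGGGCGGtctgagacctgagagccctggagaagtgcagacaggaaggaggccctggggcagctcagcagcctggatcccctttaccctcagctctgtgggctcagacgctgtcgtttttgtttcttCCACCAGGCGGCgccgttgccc
Upstream of H2-Q7: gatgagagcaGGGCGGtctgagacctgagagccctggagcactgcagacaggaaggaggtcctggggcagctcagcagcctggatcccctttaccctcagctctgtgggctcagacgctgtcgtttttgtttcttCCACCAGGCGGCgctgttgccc
Upstream of H2-Q10: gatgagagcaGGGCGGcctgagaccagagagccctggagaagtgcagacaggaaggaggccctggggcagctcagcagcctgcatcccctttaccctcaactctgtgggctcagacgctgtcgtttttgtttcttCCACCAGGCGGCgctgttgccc

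Over these 157 bases the pairs were 97.5% identical between H2-Q6 and H2-Q7, 96.8% between H2-Q6 and H2-Q10, and 95.5% between H2-Q7 and H2-Q10. This stretch was chosen for its likeness after the sequences were seen. Over 200 bases around the start of the CTCF match, compared without gaps, identity was lower, at 81.5%, 91.0% and 80% in the same order. The 3 peaks share this sequence and are not independent examples. In uniqueness, 71.4% of the 75-base stretches in the H2-Q6 TSS peak, 69.4% in that of H2-Q7 and 84.2% in that of H2-Q10 were unique in the genome. For the narrower peaks upstream the shares were 97.9%, 88.8% and 98.9%. Of the 25 peaks, 17 were unique throughout, among them those of the distal enhancer, the TSS and the last exons of Pou5f1.

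The remaining genes of the neighbourhood were covered unevenly. Of the 9 protein-coding genes other than Pou5f1 whose TSS lay in the window, 5 had a peak over it: the 3 H2-Q genes, Tcf19 and Cchcr1. Psors1c2 had none over its TSS but a peak 304 bp away. For Cdsn, which encodes the skin adhesion protein corneodesmosin, the nearest peak was 2982 bp from the TSS, although 2 peaks overlapped the far end of the gene. For 2300002M23Rik it was 8085 bp away and for Sfta2, a surfactant-associated gene, 10101 bp. The narrowest peak of the 25, 220 bp wide, lay 78.5 kb downstream, and 13.1% of distal peaks were narrower. The farthest peaks from the Pou5f1 TSS were that upstream of H2-Q6, centred 85.6 kb upstream, and one of 893 bp centred 85.0 kb downstream, which held a CTCF match 1 bp from its centre. The next peaks beyond the 100 kb limit lay 111.6 kb upstream, 675 bp wide, and 129.9 kb downstream, 297 bp wide.

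As a set, the peaks were wide. Their median width was 798 bp, with a range from 220 to 2335 bp, against 447 bp over all peaks. The 8 promoter peaks had a median of 1337 bp against 970 bp for all promoter peaks, and the 17 distal peaks 601 bp against 380 bp. By annotation 8 were promoter peaks, 3 had their centre in an exon, 14 were intergenic and none had its centre in an intron outside the promoter class. The promoter share of 32.0% stood beside 21.1% for the whole list and 24.1% on chromosome 17. Median GC content was 59.8% in the promoter peaks and 49.5% in the distal ones, against 56.96% and 47.7% over all peaks of the same kind.

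**Figure D3:**
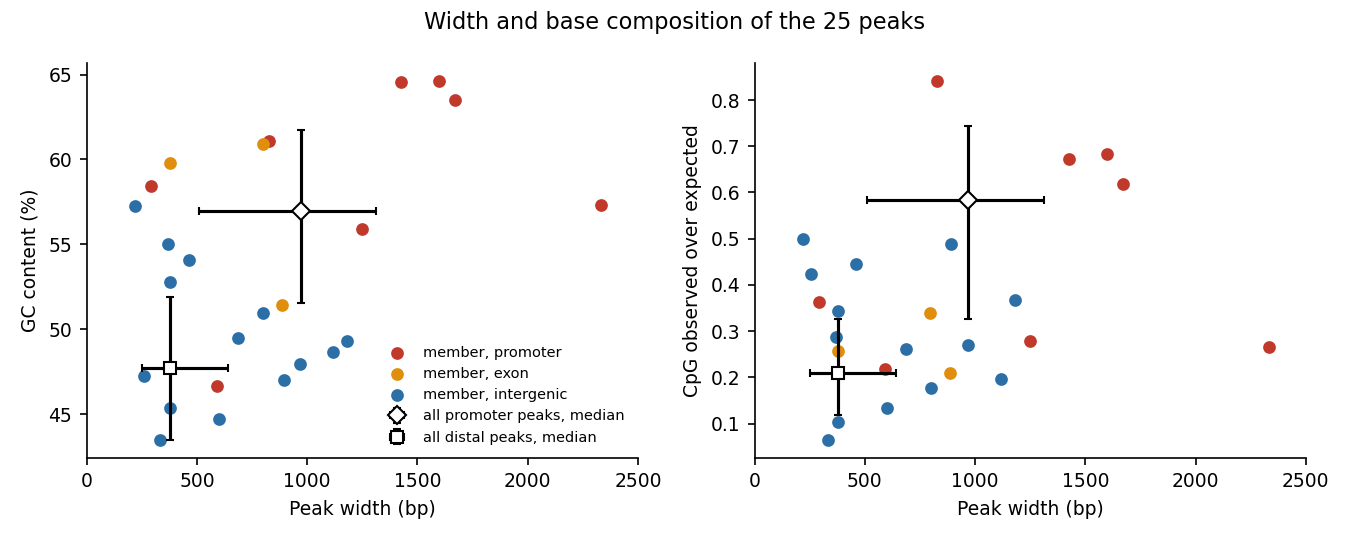
GC content in percent (left) and ratio of observed to expected CpG (right) against width in bp for the 25 peaks, coloured by annotation, with the median of all promoter and all distal peaks of the list and bars from the lower to the upper quartile. The TSS peak of Pou5f1 is the point at 2335 bp, which lies near the median GC content of promoter peaks but below their quartiles of the CpG ratio.

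Motif matches in the set were also read against the whole list, bearing in mind that wider peaks hold more letters and that promoter and distal peaks differ in their letters. A SOX match was present in 13 of the 25 peaks, or 52.0%, against 29.9% of all peaks, and per kb of peak there were 0.773 matches against 0.666. By class, SOX matches per kb came to 0.501 against 0.426 in promoter peaks and 1.03 against 0.792 in distal peaks. A GC box was present in 10, or 40% against 25.6%, with 1.40 against 1.21 per kb. Within each class the order was the other way, with 2.40 against 2.58 GC boxes per kb in promoter peaks and 0.467 against 0.479 in distal peaks, and the set held the larger share of promoter peaks given above. CTCF matches were present in 4, or 16% against 10.1%, and 3 of these 4 were the copies at the H2-Q genes. The octamer, nuclear receptor and KLF motifs each occurred in 1 peak, and the STAT3 motif in none, against 3.07%, 7.17%, 7.69% and 2.31% of all peaks. A match is a run of letters, not a measured binding site.

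The same count was made for all 21938 protein-coding genes. It was taken from both ends of each gene, so longer genes were searched over more bases. Within 100 kb of the gene the median was 15 peaks, with quartiles of 9 and 22, and 81.3% of genes had fewer than the 25 at Pou5f1. Closer in, Pou5f1 ranked higher. Within 5 kb of the TSS it had 4 peaks against a median of 1, and 98.6% of genes had fewer. Within 10 kb it had 6 against 2, with 98.7% of genes below, and within 20 kb it had 8 against 3, with 95.4% below. Neighbouring genes share peaks, so these ranks describe the list and are not tests. The counts at Pou5f1 include the peak over its last exons, where construct reads cannot be told apart from those of the locus. How Pou5f1 ranks without that peak was not tested.

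Beside other genes of the pluripotency network, the 100 kb count lay in the middle. In a list of 16 such genes the median was 25.5, and 8 had more peaks and 8 fewer than Pou5f1. The highest was 38 at Nanog, the homeobox factor that stabilises the naive state, and the lowest was 3 at Nr0b1, which encodes an orphan nuclear receptor. Sox2, the partner of OCT4, had 18 and Klf4, a zinc-finger factor, had 11. These counts were taken from both ends of each gene, so the windows were unequal. Esrrb, a long gene, had 31 peaks by this count but 1 within 20 kb of its TSS. The order changed closer in, where distance was taken from the TSS. There the counts at Pou5f1 again include the peak over its last exons. Within 5 kb of the TSS, Sall4, a zinc-finger factor, matched the 4 of Pou5f1 and the others had fewer. Within 10 kb, Prdm14, a regulator of the naive state, matched the 6 of Pou5f1, and the other 15 had fewer, with a median over the list of 3. Within 20 kb, Prdm14 had 11 and Tbx3 and Zfp42 had 9 each, more than the 8 of Pou5f1, which Nr5a2 matched. All but Dppa3 of the 16 had a peak over a TSS. The peaks near Nanog, Sox2 and Klf4 covered 13.4%, 5.17% and 4.58% of their windows, against the 10.1% at Pou5f1. None of the peaks in those windows had a composite match with up to 2 mismatches. The search used a single fixed sequence, not the motif search of the study, and only 0.255% of all peaks passed this cut-off. A peak without a match may still hold a composite site. With up to 3, 2 peaks near Nanog had a match, as many as near Pou5f1, and 0 near Sox2 and Klf4.

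**Figure D4:**
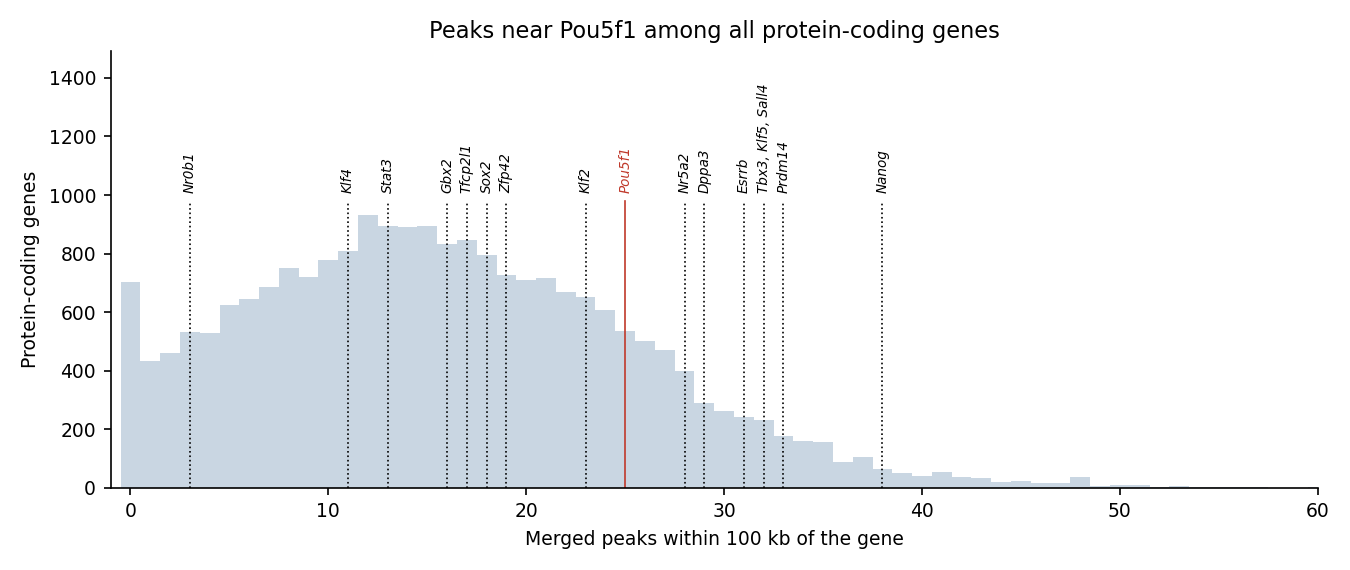
Number of protein-coding genes (vertical axis) by the number of merged peaks within 100 kb of the gene (horizontal axis, drawn up to 60), with Pou5f1 in red and the 16 genes of the pluripotency list as dotted lines. Pou5f1, at 25, lies above the median of 15 and in the middle of the list, between Klf2 at 23 and Nr5a2 at 28.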

How the data were processed

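Per the labels and the study's methods, ATAC-seq reads were aligned to GRCm38 with STAR 2.6.1c, duplicates were removed with Picard, and peaks were called with MACS2 2.1.1.20160309 on paired-end fragments. The authors merged the peaks of all dox-treated libraries of the line with BEDTools and deposited the merged positions, with no signal. The described removal of regions over 5 kb does not hold for the whole list, since 11 such regions are in it. Read depth cannot be seen in this file.

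Distances, overlaps and counts were computed in Python 3 with GENCODE M21. Base composition, motifs and uniqueness of 75-base stretches came from the RefSeq GRCm38.p6 genome. Motifs were searched on both strands. The functions were tested on simulated sequences and intervals. Named genes are Pou5f1, the protein-coding genes overlapping the window and the listed pluripotency genes; the antisense gene Gm19553 falls outside this rule and was named after its position was seen, because it sets the promoter class of 2 peaks. Named peaks are those within 20 kb of the TSS, the extremes of width and distance, and those with a composite match or over an enhancer window; the H2-Q peaks were described after their sequences were seen. The members and lists were chosen with earlier results of these data known.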

Additional observations from a re-analysis of the deposited data

How the results depend on the processing

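The count of 25 peaks was the same when any overlap with the window counted, when distance was taken from the TSS, when peaks under 200 bp were left out and when gaps under 200 bp were joined, and it was 18 in a window of 50 kb. The median width of 798 bp also stayed as it was with narrow peaks left out or close peaks joined. With each enhancer window widened by 200 bp on both sides, 74.6% of the distal and 65.5% of the proximal window was covered, and with each narrowed by as much the shares were 100.0% and 0. Promoter peaks numbered 5 within 500 bp of a TSS and 11 within 2500 bp. In the transcript with the longest coding sequence, exon coverage was 69.0% and intron coverage 45.5%. The composite motif was found in 0 peaks with up to 1 mismatch and in 2 with up to 3. Neighbouring TSSs with a peak rose from 5 to 6 when a peak within 1 kb counted. The share of genes with fewer peaks than Pou5f1 was 89.4% with distance from the TSS, 89.6% within 50 kb, 75.9% among genes with a peak over a TSS and 83.6% without peaks under 200 bp. No paired analysis was possible because the list has no column for any sample. The list cannot show which libraries, phases or treatments a region came from, how open it was, or whether a gap was closed chromatin or fell below the threshold of the peak caller. Nor can it show where the disrupted copies of Pou5f1 differ from the reference gene, or whether a gap or peak edge there reflects this.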
